A study of Mus musculus with 41 samples.

Results

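The 33 genes described here encode the steps of glycolysis and proteins of the hypoxia response. They were taken by name, and all 33 were found among the 51410 genes in the 4 count tables of the series. By role they comprise 2 glucose transporters, 9 enzymes from hexokinase to triose phosphate isomerase, 2 regulators of phosphofructokinase, 6 enzymes from glyceraldehyde-phosphate dehydrogenase to pyruvate kinase, 2 enzymes that decide the fate of pyruvate and 12 other hypoxia response genes.

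In glycolysis, imported glucose is phosphorylated, split and oxidised to pyruvate, which is either reduced to lactate or passed to mitochondria. Hypoxia-inducible factors (HIFs) are transcription factors whose α subunits are hydroxylated by the EGLN prolyl hydroxylases when oxygen is present and are then destroyed. When oxygen is short they persist, pair with ARNT and raise transcription of glucose transporters, most glycolytic enzymes, Vegfa and some EGLN genes. Pluripotent stem cells are known for their reliance on glycolysis.

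RNA-seq of messenger RNA compared Caprin1 knockout (KO) mouse embryonic stem cells, as clone 2 and clone 4, with wild-type (WT) cells of the R1 line. CAPRIN1 is an RNA-binding protein of the cytoplasm and of stress granules. All groups, WT included, had been kept for 4 days with 1 µM retinoic acid in medium that lacked LIF, and were then harvested 0, 2, 4 or 8 h after α-amanitin was added at 2 µg/ml. The toxin α-amanitin blocks transcription by RNA polymerase II. Each time point had 2 libraries of clone 2, 2 of clone 4 and 4 of WT, except that 1 clone 4 library at 0 h was not analysed here. Each KO line is 1 clone, and how the clones were made is not given in the sources used here. The labels do not say whether libraries of a group came from separate cultures, so p-values measure only the spread between these libraries, which may be technical.

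The 31 libraries held 3.95 to 31.6 mega-counts (M) at 0 h and 3.46 to 10.6 M at the later times. Levels are counts-per-million values scaled by TMM factors (CPM), so they give a gene's share of the RNA and not its amount, and in these bulk samples fewer cells of a type and less RNA per cell cannot be told apart. Caprin1 itself averaged 139.9 ± 34.8 CPM in clone 2 (SD, n = 8) and 1078 ± 98.2 CPM in clone 4 (SD, n = 7), against 989.97 ± 106 CPM in WT (SD, n = 16), so the libraries labelled clone 4 carried Caprin1 RNA at about the WT level, and RNA counts do not show whether protein was made. All 9 pluripotency markers were detected in every line. The summed level of 12 parietal and primitive endoderm markers had a median of 76964 CPM in clone 2 and 30731 CPM in clone 4, against 19390 CPM in WT, with 12 of 12 called higher in either clone. At 0 h the WT libraries fell into pairs: replicates 3 and 4 differed by a root mean square of 0.115 (log2) and replicates 1 and 2 by 0.203, against 0.309 to 0.347 across the pairs.

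The promoters of 4 members that stand for the patterns below are shown first: P4ha1, higher in both clones, Fam162a, lower in both, and Egln3 and Bnip3, called in opposite directions in the clones. Each line gives the 250 bases before the start used in the RefSeq promoter windows (GRCm38.p6), except that for P4ha1, where this start lies 99 bases inside the RefSeq span of the gene, only the 151 bases outside the span are shown. All are read 5′ to 3′ in the direction of transcription. Capitals mark ACGTG or GCGTG on either strand, the core that HIFs are known to bind; neighbouring or overlapping matches run together in capitals.
P4ha1 (chr10:59323046-59323196, plus strand): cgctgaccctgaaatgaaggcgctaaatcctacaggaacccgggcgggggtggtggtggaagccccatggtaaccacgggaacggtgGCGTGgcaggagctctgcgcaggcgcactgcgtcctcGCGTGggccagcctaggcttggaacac
Fam162a (chr16:36071562-36071811, minus strand): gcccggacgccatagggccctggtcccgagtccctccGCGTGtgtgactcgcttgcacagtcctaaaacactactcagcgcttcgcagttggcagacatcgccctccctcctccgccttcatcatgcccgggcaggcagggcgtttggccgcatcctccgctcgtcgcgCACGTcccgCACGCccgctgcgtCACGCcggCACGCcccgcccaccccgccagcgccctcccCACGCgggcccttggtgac
Egln3 (chr12:54203875-54204124, minus strand): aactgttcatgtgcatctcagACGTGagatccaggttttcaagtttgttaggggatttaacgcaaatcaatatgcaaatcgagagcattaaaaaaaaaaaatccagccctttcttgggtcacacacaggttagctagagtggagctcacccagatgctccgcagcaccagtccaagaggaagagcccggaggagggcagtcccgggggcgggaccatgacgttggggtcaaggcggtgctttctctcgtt
Bnip3 (chr7:138909507-138909756, minus strand): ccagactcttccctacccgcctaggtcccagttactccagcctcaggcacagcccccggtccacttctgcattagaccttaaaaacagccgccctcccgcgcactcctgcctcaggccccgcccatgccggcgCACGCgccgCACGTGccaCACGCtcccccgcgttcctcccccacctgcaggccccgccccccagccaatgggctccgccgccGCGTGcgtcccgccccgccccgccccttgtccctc

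As printed, P4ha1 held 2 such matches, Fam162a 6, Egln3 1 and Bnip3 5, among them a CACGTG that counts on both strands. RefSeq promoter windows, from 250 bases before to 50 after a start, were found for 30 of the 33 members. A match to ACGTG or GCGTG stood in at least 1 window of 27 of these 30 genes (90.0%), against 46.7% of all 27025 genes with a window. Counted by window, 36 of 48 held a match (75.0%), against 43.8% of 32851 windows. ACGTG alone was found for 21 of 30 members (70.0%), against 21.8% of all genes. The members' windows were also richer in G and C, with a median of 62.2% against 52.7% over all windows, and the part of this in the shares was not tested. These matches describe the letters of the windows only.

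Each clone was compared with WT as the mean difference over the 4 time points in 1 edgeR quasi-likelihood fit of all libraries, with Benjamini-Hochberg adjustment over 15850 genes and a call at an adjusted p (FDR) under 0.05. The members split by clone. In clone 2, 15 of 33 rose and 10 fell, where 73.6% of all genes were called, 36.9% higher and 36.7% lower. The median log2 difference was 0.12, against -0.00 over all genes. Without TMM scaling the split in clone 2 turned over, to 12 higher and 14 lower. In clone 4, 6 rose and 22 fell, where 57.9% of all genes were called, 28.1% higher and 29.8% lower. The median was -0.38, against -0.02 over all genes. Both clones were called higher for 4 members (19% of all genes) and lower for 9 (20%), while 9 were called in opposite directions (8.03%). A further 3 were called in clone 2 alone (26.5%), 6 in clone 4 alone (10.8%) and 2 in neither (15.6%). The clones share the WT libraries as their control.

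**Figure D1:**
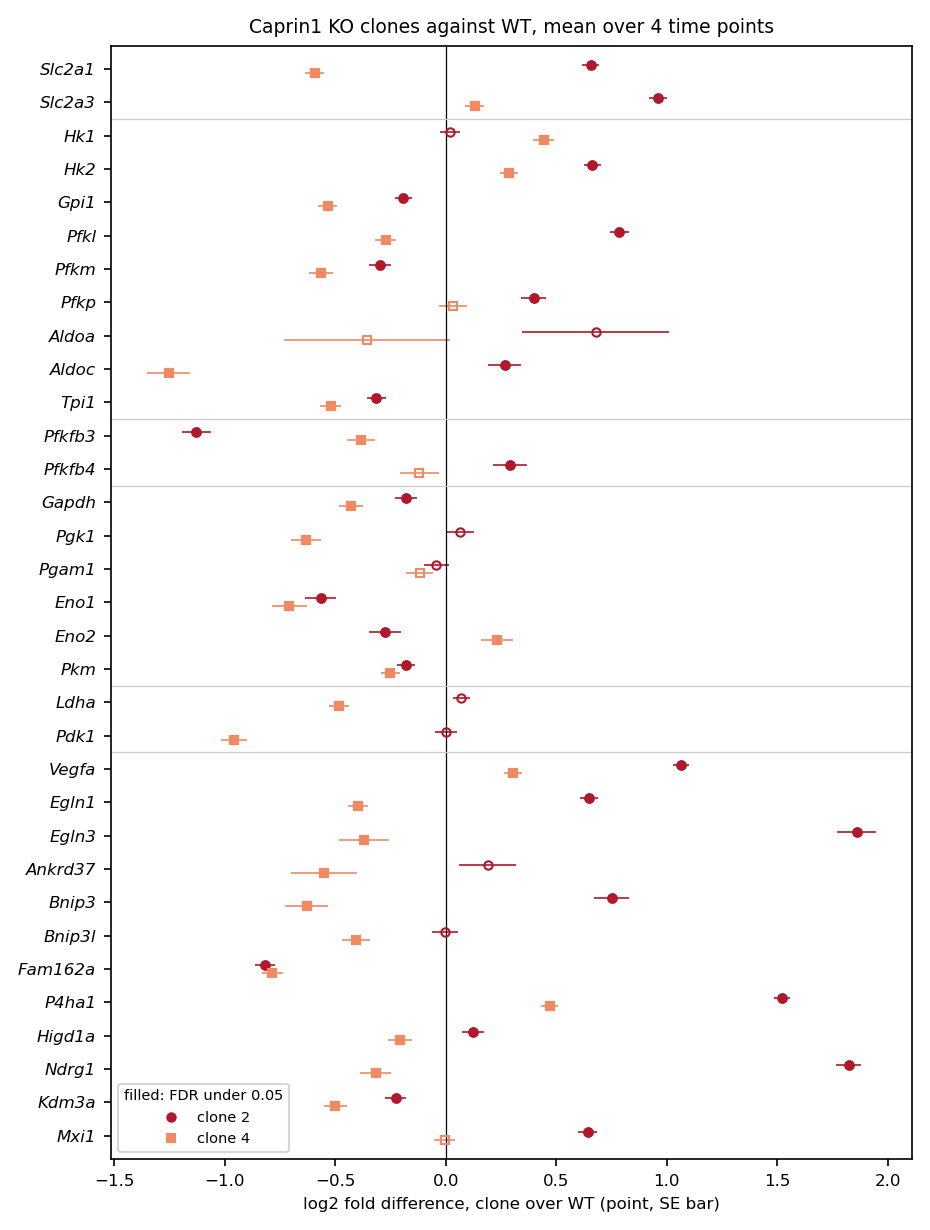
Log2 difference of clone 2 (circles) and clone 4 (squares) over WT, as the mean of 4 time points with its SE, for each of the 33 members in order of role; filled symbols passed an FDR under 0.05. In clone 2 the hypoxia response genes Egln3, Ndrg1 and P4ha1 stand farthest to the right, while 22 of the clone 4 points are called to the left of 0.

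Direct contrast of the clones in the same fit, added after the values were seen, called 26 members higher and 3 lower in clone 2 than in clone 4, where 64.9% of all genes were called, 32.5% higher and 32.4% lower. The median was 0.41, against 0.01 over all genes. The 3 lower ones were Hk1, Pfkfb3 and Eno2. Among the 12 other hypoxia response genes, 11 were higher in clone 2, and the exception, Fam162a, differed by -0.03 ± 0.06 (SE).

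Of the glucose transporters, Slc2a1 (GLUT1) diverged between the clones and Slc2a3 (GLUT3) was higher in both. At 0 h Slc2a1 read 1124 and 1150 CPM in clone 2 and 422 CPM in clone 4, against 684, 784, 704 and 759 CPM in WT. Libraries of clone 2 lay above and those of clone 4 below every WT library at all 4 times. Over all times the log2 difference was 0.66 ± 0.04 (SE) in clone 2 and -0.59 ± 0.04 in clone 4 (FDR 6.32e-18 in clone 2 and 2.86e-14 in clone 4). Slc2a3 had 2662 and 2906 CPM in clone 2 and 1309 CPM in clone 4 at 0 h, against 1056, 1305, 1367 and 1489 CPM in WT. Its difference was 0.96 ± 0.04 in clone 2 but 0.13 ± 0.04 in clone 4, where the single 0 h library lay within the WT range and the call was lost without the 4 h table (0.10) and without TMM scaling (0.06).

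Upstream of the triose phosphates, clone 2 had 4 of 9 enzymes higher and 3 lower, near the 36.9% and 36.7% of all genes, and clone 4 had 2 higher and 5 lower, where 28.1% and 29.8% of all genes were called. Hk2, the inducible hexokinase that commits glucose to the cell, rose in both clones. At 0 h it read 368 and 375 CPM in clone 2 and 301 CPM in clone 4, against 266, 289, 276 and 276 CPM in WT. At every time both clones lay above all WT libraries, with log2 differences of 0.66 ± 0.04 (SE) in clone 2 and 0.29 ± 0.04 in clone 4. Its partner Hk1 was higher in clone 4 alone (0.44 ± 0.05), with all clone 4 libraries above WT at each time.

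The 3 phosphofructokinase genes, whose products catalyse the main control step, did not move together. Pfkl, the liver-type subunit, read 958 and 923 CPM in clone 2 and 448 CPM in clone 4 at 0 h, against 575, 642, 528 and 542 CPM in WT. That put clone 2 above and clone 4 below all WT libraries, and over all times the differences were 0.79 ± 0.04 (SE) in clone 2 and -0.27 ± 0.05 in clone 4. Pfkm, the muscle-type subunit, read 35.1 and 38.1 CPM in clone 2 and 27.9 CPM in clone 4 at 0 h, against 43.1, 52.7, 44.3 and 46.3 CPM in WT. It lay below WT at all 4 times in clone 4 and at 3 in clone 2, and fell by 0.30 ± 0.05 in clone 2 and 0.56 ± 0.05 in clone 4. Pfkp, the platelet type, rose by 0.40 ± 0.06 in clone 2, and its clone 4 difference of 0.03 ± 0.06 did not pass.

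Gpi1, the isomerase after hexokinase, fell by 0.19 ± 0.04 (SE) in clone 2 and 0.53 ± 0.04 in clone 4. Tpi1, which interconverts the triose phosphates, read 475 and 452 CPM in clone 2 and 381 CPM in clone 4 at 0 h, against 553, 619, 503 and 541 CPM in WT. Within each time all libraries of both clones lay below WT, with differences of -0.31 ± 0.04 in clone 2 and -0.52 ± 0.05 in clone 4. Aldoc, an aldolase, read 16.2 and 16.4 CPM in clone 2 and 7.27 CPM in clone 4 at 0 h, against 12.8, 16, 14 and 14 CPM in WT. It had the largest fall of any member in clone 4, -1.25 ± 0.10, and a small rise in clone 2, 0.27 ± 0.07, which was lost without TMM scaling (0.11). Aldoa was near the floor, at no more than 1.30 CPM in any library, and was called in neither clone. The tables hold 2 lines for Aldoa with identical counts, lengths of 12360 and 1532 bases and 1 Ensembl identifier, ENSMUSG00000114515, while the reference lists 2 identifiers for the symbol, and the other was not analysed here.

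Pfkfb3 and Pfkfb4 set the level of the metabolite that activates phosphofructokinase. Pfkfb3 fell in both clones. At 0 h it read 63.6 and 59.4 CPM in clone 2 and 76.4 CPM in clone 4, against 103, 119, 125 and 126 CPM in WT, with no overlap of either clone with WT. Over all times the differences were -1.13 ± 0.06 (SE) in clone 2 and -0.38 ± 0.07 in clone 4. Pfkfb4 was low, with every library under 14 CPM, and rose in clone 2 alone by 0.29 ± 0.08, a call lost without TMM scaling (0.14).

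Downstream of the triose phosphates no enzyme rose in clone 2, where 4 of 6 fell, and clone 4 had 1 higher and 4 lower, against the same shares of all genes. Eno1, the main enolase, read 502 and 489 CPM in clone 2 and 397 CPM in clone 4 at 0 h, against 723, 846, 643 and 583 CPM in WT. Both clones lay below every WT library at each time, with differences over all times of -0.57 ± 0.07 (SE) in clone 2 and -0.71 ± 0.08 in clone 4, and of -0.39 in clone 2 and -0.52 in clone 4 without the 4 h table. Eno2, the neuronal enolase, went the other way in clone 4: at 0 h it read 17.1 and 18.3 CPM in clone 2 and 23.6 CPM in clone 4, against 22.7, 19.7, 16.6 and 17.9 CPM in WT. Clone 2 overlapped WT at 2 of the 4 times and clone 4 at 1. The differences were -0.27 ± 0.07 in clone 2 and 0.23 ± 0.07 in clone 4, and the clone 4 call was lost without TMM scaling (0.16).

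Gapdh fell by 0.18 ± 0.05 (SE) in clone 2 and 0.43 ± 0.05 in clone 4, and Pkm, pyruvate kinase, by 0.18 ± 0.04 in clone 2 and 0.25 ± 0.04 in clone 4. Pgk1, the first ATP-yielding enzyme, fell by 0.63 ± 0.07 in clone 4 alone; its clone 2 difference of 0.07 ± 0.06 became a call without the 4 h table (0.22). Pgam1 was called in neither clone, at -0.04 ± 0.06 in clone 2 and -0.12 ± 0.06 in clone 4. These means include the 4 h table, where Pgam1 was low in every line. Clone 4 lay below all WT libraries at 0 h (84.6 CPM in 1 library, against 110 to 136 CPM). Clone 2 did so at 8 h (76.7 and 79.7 CPM, against 84.5 to 102 CPM). At its 3 other times each clone overlapped WT. After pyruvate, Ldha, which makes lactate, and Pdk1, a kinase of pyruvate dehydrogenase, fell in clone 4, Ldha by 0.48 ± 0.04 and Pdk1 by 0.96 ± 0.06. In clone 2 neither was called, at 0.07 ± 0.04 for Ldha and 0.00 ± 0.05 for Pdk1.

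Of the 15 rises in clone 2, 8 were among the 12 other hypoxia response genes. In clone 2, 8 of these 12 rose and 2 fell, where 36.9% of all genes were called higher and 36.7% lower. In clone 4, 2 of these 12 rose and 9 fell, again beside 28.1% and 29.8% of all genes. P4ha1, the catalytic subunit of collagen prolyl hydroxylase, had the largest rise shared by both clones. At 0 h it read 693 and 671 CPM in clone 2 and 351 CPM in clone 4, against 218, 245, 279 and 295 CPM in WT. No library of either clone overlapped WT at any time, and the differences were 1.52 ± 0.04 (SE) in clone 2 and 0.47 ± 0.04 in clone 4. Vegfa, the vascular growth factor, read 282 and 287 CPM in clone 2 and 136 CPM in clone 4 at 0 h, against 139, 138, 125 and 142 CPM in WT. At 0 h only clone 2 stood apart, and at 2, 4 and 8 h both clones lay above all WT libraries, with differences over all times of 1.06 ± 0.04 in clone 2 and 0.31 ± 0.04 in clone 4.

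Fam162a, a mitochondrial protein induced by hypoxia, fell in both clones. It read 71.2 and 69.2 CPM in clone 2 and 65.6 CPM in clone 4 at 0 h, against 109, 140, 131 and 130 CPM in WT. Both clones stayed below all WT libraries at each of the 4 times, by -0.82 ± 0.05 (SE) in clone 2 and -0.78 ± 0.05 in clone 4.

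**Figure D2:**
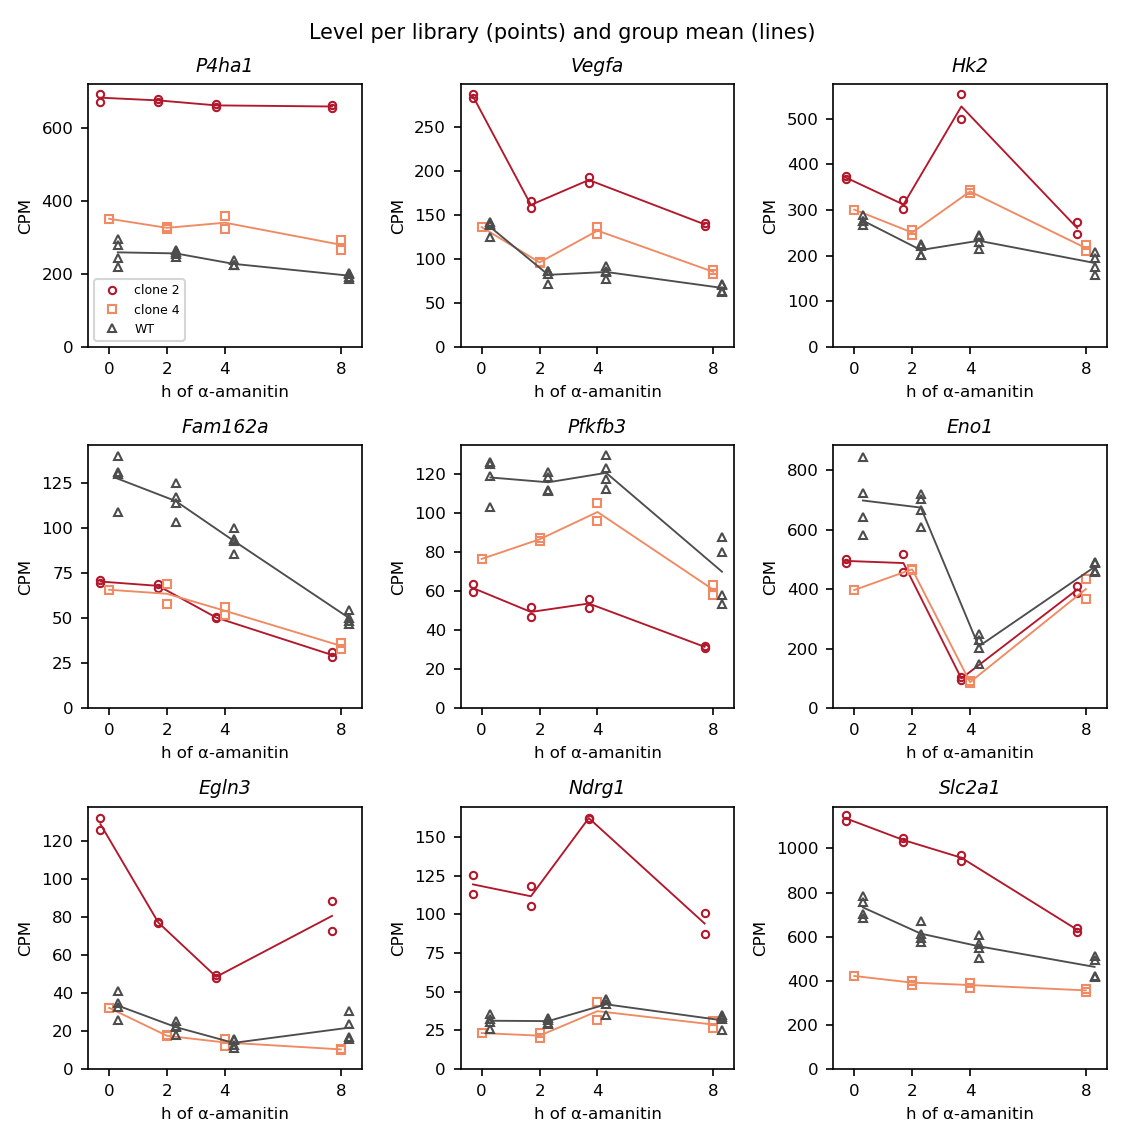
CPM of 9 members by hours of α-amanitin, with a point for each library of clone 2 (circles), clone 4 (squares) and WT (triangles) and lines through group means; points are shifted sideways to keep them apart. P4ha1, Vegfa and Hk2 run above WT in both clones, Fam162a, Pfkfb3 and Eno1 below it, while Egln3, Ndrg1 and Slc2a1 run above WT in clone 2 and at or below it in clone 4.

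The other hypoxia response genes held 5 of the 9 members called in opposite directions, Egln3, Egln1, Ndrg1, Bnip3 and Higd1a. Egln3 (PHD3), itself induced by HIF, read 126 and 132 CPM in clone 2 and 32.2 CPM in clone 4 at 0 h, against 25.6, 32.5, 34.6 and 40.9 CPM in WT. Clone 2 lay above WT at all times, and clone 4 lay below it at 2 of the 4 times and overlapped it at the others. The differences were 1.86 ± 0.09 (SE) in clone 2 and -0.37 ± 0.11 in clone 4. Egln1 (PHD2) read 249 and 253 CPM in clone 2 and 123 CPM in clone 4 at 0 h, against 144, 154, 164 and 167 CPM in WT, and its differences were 0.65 ± 0.04 in clone 2 and -0.40 ± 0.05 in clone 4, with no overlap at any time.

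Ndrg1, a gene induced by hypoxia and by differentiation, read 113 and 125 CPM in clone 2 and 23.3 CPM in clone 4 at 0 h, against 26.1, 30.6, 32.6 and 35.8 CPM in WT. Its differences were 1.82 ± 0.06 (SE) in clone 2 and -0.32 ± 0.07 in clone 4, the clone 4 libraries overlapping WT at 2 of 4 times. Bnip3, a receptor for the removal of mitochondria, read 91.2 and 94.9 CPM in clone 2 and 46.5 CPM in clone 4 at 0 h, against 43.1, 53.3, 66 and 75.4 CPM in WT, with differences of 0.75 ± 0.08 in clone 2 and -0.63 ± 0.10 in clone 4. Its relative Bnip3l was called in clone 4 alone (-0.41 ± 0.06). Higd1a, a mitochondrial inner membrane protein, read 35.3 and 37.3 CPM in clone 2 and 31.4 CPM in clone 4 at 0 h, against 32.7, 41.2, 40.5 and 38.3 CPM in WT, so that at 0 h clone 2 lay within the WT range. Its fall of 0.21 ± 0.05 in clone 4 stands beside 0.12 ± 0.05 in clone 2, which was lost without the 4 h table, without any 1 of 3 clone 2 libraries (0.10 to 0.12), and turned to -0.03 without TMM scaling.

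The last 3 differed again. Mxi1, an antagonist of MYC, rose by 0.64 ± 0.04 (SE) in clone 2, and its clone 4 difference was -0.00 ± 0.05. Kdm3a, a histone demethylase, fell by 0.23 ± 0.05 in clone 2 and 0.50 ± 0.05 in clone 4. Ankrd37, a small ankyrin-repeat gene at no more than 6.21 CPM, fell by 0.55 ± 0.15 in clone 4, with 0.19 ± 0.13 in clone 2.

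Other cell type markers also differed between the lines. Besides the endoderm list above, summed fibroblast markers had a median of 604 CPM in clone 2 and 2256 CPM in clone 4, against 954 CPM in WT, and 6 of 9 were higher and 2 lower in clone 2, 8 higher and 1 lower in clone 4. Neural markers summed to 70.8 CPM in clone 2 and 332 CPM in clone 4, against 360 CPM in WT, with 1 of 5 higher and 4 lower in clone 2 and 1 higher and 1 lower in clone 4. Pluripotency markers summed to 1054 CPM in clone 2 and 772 CPM in clone 4, against 569 CPM in WT, with 5 of 9 higher and 3 lower in clone 2 and 6 higher and 0 lower in clone 4. The endoderm sum ranged from 70113 to 80740 CPM in clone 2 and from 26318 to 35530 CPM in clone 4, against 17990 to 21906 CPM in WT. No gene of these 4 lists was at 0, and 3 of 4 erythroid markers were at 0 in clone 2 and 2 of 4 in either other line. The part of these markers in the members' differences was not tested.

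Before the drug, at 0 h alone, 13 members were higher and 9 lower in clone 2, where 60.1% of all genes were called, 30.6% higher and 29.4% lower. The lower count rested on the fit: it was 4, beside 12 higher, with the 0 h libraries alone, and 5, beside 12 higher, without clone 2 replicate 2. In clone 4, 2 were higher and 21 lower, where 38.1% of all genes were called, 19.7% higher and 18.4% lower. The clone 4 count rests on 1 library and was 13 when the 0 h libraries were fitted alone. With the clones pooled as KO, 4 members were higher and 4 lower than WT at 0 h (26.1% of all genes called, 13.9% higher and 12.2% lower). This fit takes each library as a unit, so the spread between the 2 clones enters the error only in part. Without TMM scaling the split was 2 higher and 9 lower. The higher ones were P4ha1 (1.14 ± 0.23, SE), Vegfa, Slc2a3 and Egln3, and the lower ones Fam162a (-0.90 ± 0.11), Pfkfb3, Eno1 and Pfkm. Pooled KO at 0 h held 2 libraries of clone 2 and 1 of clone 4. The clone 4 library lay within the WT range for Vegfa, Slc2a3 and Egln3, and outside it for the other called members. The pooled count was 3 without either clone 2 library or without WT replicate 1 or 2. It was 4 without WT replicate 3 or 4, and 16 without the clone 4 library. Without WT replicates 1 and 2 together it was 0, and without 3 and 4 together it was 3.

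At the later times 32 members were tested, Aldoa having been too low. KO had 3 higher and 9 lower at 2 h (31.5% of all genes called, 17% higher and 14.6% lower) and 4 higher and 7 lower at 4 h (36.3%, 19.4% higher and 16.9% lower). At 8 h it had 3 higher and 4 lower (17.3%, 10.3% higher and 7.06% lower), and 2 higher and 7 lower without TMM scaling. P4ha1 and Vegfa were called higher and Fam162a and Eno1 lower at all 4 times, and Hk2 was called higher at 2, 4 and 8 h. Many of these calls rested on single libraries. Vegfa at 0, 2 and 8 h, P4ha1 at 2 and 8 h and Hk2 at 8 h lost theirs without any 1 clone 2 or WT library. Eno1 lost its call at 0 h without either clone 2 library or WT replicate 1 or 2. At 8 h it lost the call without any 1 library but clone 4 replicate 1. Fam162a kept its call throughout. The 2 h count was 5 without WT replicate 1 or 2 and 7 without WT replicate 4, and the 8 h count was 1 without WT replicate 1, 3 or 4, 2 without WT replicate 2, and 2 and 3 without clone 2 replicates 1 and 2.

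After α-amanitin most members fell in WT as a share of the RNA. At 2 h none was higher and 8 were lower than at 0 h (27.7% of all genes called, 14.1% higher and 13.7% lower), led by Ankrd37 (-1.61 ± 0.20, SE), Vegfa (-0.73 ± 0.06) and Egln3 (-0.63 ± 0.16). This count was 13 without WT replicate 1 at 0 h and 17 without WT replicates 1 and 2 at 0 h. At 4 h 27 were lower and 1, Ndrg1, was higher (0.38 ± 0.10), where 52.2% of all genes were called, 24.8% higher and 27.4% lower. At 8 h 28 of 33 were lower and 1 higher, where 51.1% of all genes were called, 25.7% higher and 25.4% lower. The median at 8 h was -0.59, against 0.01 over all genes. Each time point is a table of its own, so time and table cannot be told apart.

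The 4 largest falls over 8 h were in Bnip3, Fam162a, Aldoc and Pdk1. Bnip3 read 20.8, 17.3, 24 and 23.8 CPM at 8 h, against 43.1, 53.3, 66 and 75.4 CPM at 0 h, a change of -1.49 ± 0.13 (SE). Fam162a had 48.2, 46.9, 54.5 and 49.8 CPM at 8 h, against 109, 140, 131 and 130 CPM at 0 h (-1.37 ± 0.07). Neither gene had an 8 h library that reached any 0 h library. Aldoc read 4.79, 4.78, 7.51 and 6.2 CPM at 8 h, against 12.8, 16, 14 and 14 CPM at 0 h (-1.30 ± 0.13). Pdk1 read 46.6, 44.7, 60.9 and 54.3 CPM at 8 h, against 116, 115, 127 and 139 CPM at 0 h (-1.27 ± 0.08). The 8 h libraries of both genes again lay below all those at 0 h.

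Pfkfb4 was the 1 member that rose, with 9.45, 9.05, 10 and 10.9 CPM at 8 h against 7.82, 7.87, 7.74 and 5.96 CPM at 0 h (0.42 ± 0.12, SE). The 4 members that did not pass were Slc2a3 (-0.10 ± 0.07), Bnip3l (-0.13 ± 0.09), Ndrg1 (-0.01 ± 0.10) and Aldoa (-0.89 ± 0.41). All 6 enzymes from Gapdh to pyruvate kinase fell, by 0.28 ± 0.11 for Eno2 to 0.59 ± 0.07 for Pkm, as did 8 of the 9 enzymes before them, 1 of the 2 glucose transporters and 10 of the 12 other hypoxia response genes. The Eno2 call was lost without WT replicate 1 or 2 at 0 h (-0.23 each) or replicate 3 or 4 at 8 h (-0.18 and -0.29), and that of Ankrd37 without WT replicate 2 at 0 h (-0.39).

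**Figure D3:**
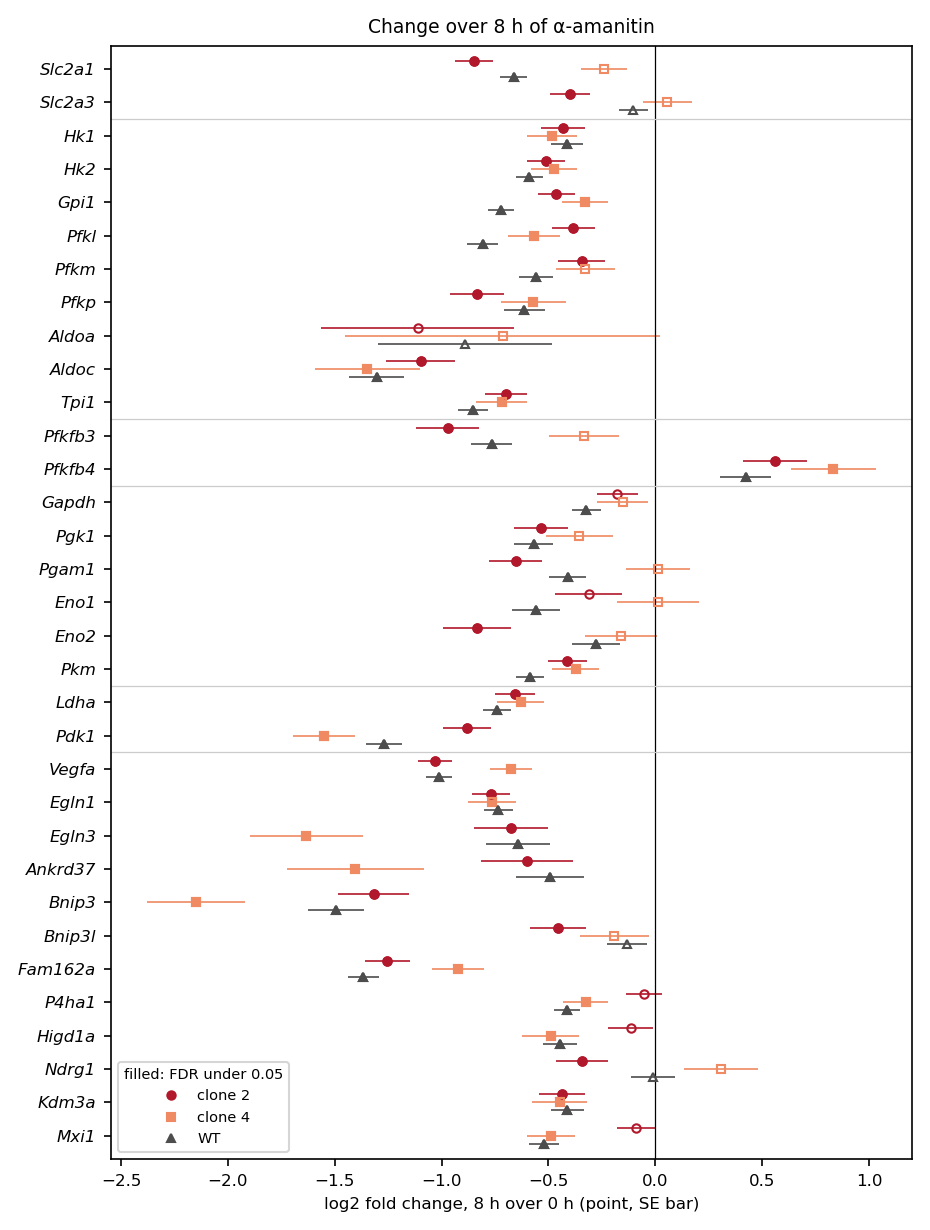
Log2 change at 8 h over 0 h of α-amanitin with its SE for the 33 members in clone 2 (circles), clone 4 (squares) and WT (triangles); filled symbols passed an FDR under 0.05. Nearly all points lie left of 0, Pfkfb4 alone is called to the right in all 3 lines, and P4ha1, Pfkl and Mxi1 are the members where the clone 2 change differed from the WT change.

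The clones showed the same direction. In clone 2, 26 members were lower and 1 higher at 8 h than at 0 h (28.4% of all genes called, 12.6% higher and 15.8% lower). In clone 4, 20 were lower and 1 higher (19.5%, 8.57% higher and 10.9% lower). The median change was -0.53 in clone 2 and -0.47 in clone 4, against -0.03 in clone 2 and -0.01 in clone 4 over all genes. Bnip3 again had the largest fall, -1.32 ± 0.17 (SE) in clone 2 and -2.15 ± 0.23 in clone 4, and Pfkfb4 was again the member that rose.

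A test of the difference in change called 3 members in clone 2, all with a smaller fall than in WT (7.42% of all genes called, 3% higher and 4.42% lower). P4ha1 read 663 and 654 CPM at 8 h and 693 and 671 CPM at 0 h in clone 2, against 191, 186, 201 and 203 CPM at 8 h and 218, 245, 279 and 295 CPM at 0 h in WT, a difference of 0.36 ± 0.11 (SE, FDR 0.0283). For Pfkl, clone 2 had 744 and 697 CPM at 8 h and 958 and 923 CPM at 0 h, against 308, 312, 350 and 337 CPM at 8 h and 575, 642, 528 and 542 CPM at 0 h in WT (0.42 ± 0.12, FDR 0.0284). For Mxi1, clone 2 had 64.5 and 62.4 CPM at 8 h and 66.9 and 68.2 CPM at 0 h, against 32, 28.3, 36.7 and 30.4 CPM at 8 h and 44.1, 44.4, 47 and 46.5 CPM at 0 h in WT (0.43 ± 0.11, FDR 0.0137). In all 3 the WT libraries at 8 h lay below those at 0 h, and so did those of clone 2, by less.

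Each of these 3 calls was lost without at least 1 single library. Without clone 2 replicate 1 at 0 h or at 8 h no member was called, without clone 2 replicate 2 at either time or WT replicate 1 or 2 at 8 h 1 was, and without WT replicate 2 at 0 h or replicate 3 at 8 h 5 were. Without WT replicates 3 and 4 at 0 h together 9 members were called, as were 31.4% of all genes, and P4ha1 was no longer among them. In clone 4 no member was called by edgeR (4.09% of all genes were, 1.81% higher and 2.28% lower), 10 had an unadjusted p under 0.05, as did 21.5% of all genes, and DESeq2 called 3. For clone 4 the count was 2 without WT replicate 1 at 0 h or without replicates 1 and 2 together, 3 without replicate 3, 5 without replicate 4, 10 without replicates 3 and 4 together (31.5% of all genes), and 1 without any single WT library at 8 h. The closest to a call were Slc2a1 (0.42 ± 0.13, SE, FDR 0.0501) and Egln3 (-0.99 ± 0.31, FDR 0.0675), named after their values were seen.

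The 4 h table stood apart for a handful of glycolytic enzymes. In it Gapdh, a common reference transcript, read 12.8 and 13.9 CPM in clone 2, 12.9 and 10.1 CPM in clone 4 and 18.6, 14, 13.9 and 13.3 CPM in WT. At 2 h it read 792 and 737 CPM in clone 2, 665 and 636 CPM in clone 4 and 1004, 953, 885 and 890 CPM in WT. At 8 h it read 726 and 670 CPM in clone 2, 616 and 541 CPM in clone 4 and 713, 714, 742 and 739 CPM in WT. Every library at 4 h was far below every library at the other times, and the WT level at 2 and 8 h was 55.6 times that at 4 h.

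As log2 of the 4 h level over the mean of 2 and 8 h, given without a test because this pattern was part of how the genes were described, Gapdh stood at -5.77 in clone 2, -5.71 in clone 4 and -5.78 in WT. Pgk1 read 27.4 and 34.8 CPM in clone 2, 19.9 and 19.9 CPM in clone 4 and 44.2, 52.2, 40.3 and 28 CPM in WT at 4 h, at differences of -3.16 in clone 2, -3.12 in clone 4 and -2.58 in WT. Pgam1 stood at -1.64 in clone 2, -1.55 in clone 4 and -1.99 in WT. Eno1 stood at -2.15 in clone 2, -2.31 in clone 4 and -1.46 in WT. Pgam1 at 4 h had 28.1 and 31.2 CPM in clone 2 and 28.8 and 37.2 CPM in clone 4, against 21.6, 20.9, 26.5 and 32.3 CPM in WT. Eno1 at 4 h had 103 and 95.7 CPM in clone 2 and 91 and 83.2 CPM in clone 4, against 228, 250, 204 and 149 CPM in WT. All 3 lines thus dipped at 4 h and were higher again at 8 h.

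Beyond these, Aldoa (-1.09), Ankrd37 (-0.79), Bnip3 (-0.79) and Egln3 (-0.70) were more than 0.5 below in WT, making 8 of 33 members against 11.1% of all genes; the counts were 9 in clone 2 (14.6%) and 4 in clone 4 (13.3%). The other 25 members were not, among them Ldha (0.13) and Pkm (-0.14). Aldoa and Ankrd37 rest on few reads: in WT at 4 h Aldoa had 2, 0, 1 and 2 counts and Ankrd37 14, 4, 11 and 14. Because the genes were also described by this fall in those with pseudogenes, the members are not compared here by whether they have such rows. Across all genes at 10 CPM or more, as a description, rows of the tables named as pseudogenes of a gene went with the fall: 95 of 243 with such a row lay more than 0.5 below (39.1%), against 384 of 9282 without one (4.14%). With ribosomal protein genes left out, 45 of 186 did (24.2%), against 372 of 9250 (4.02%). The pseudogene rows themselves held little in WT at 4 h, 0.730 CPM for those of Gapdh and 0.185 CPM for those of Pgam1. The part of such copies in the dip was not tested, and time and the making of the 4 h table cannot be told apart.

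**Figure D4:**
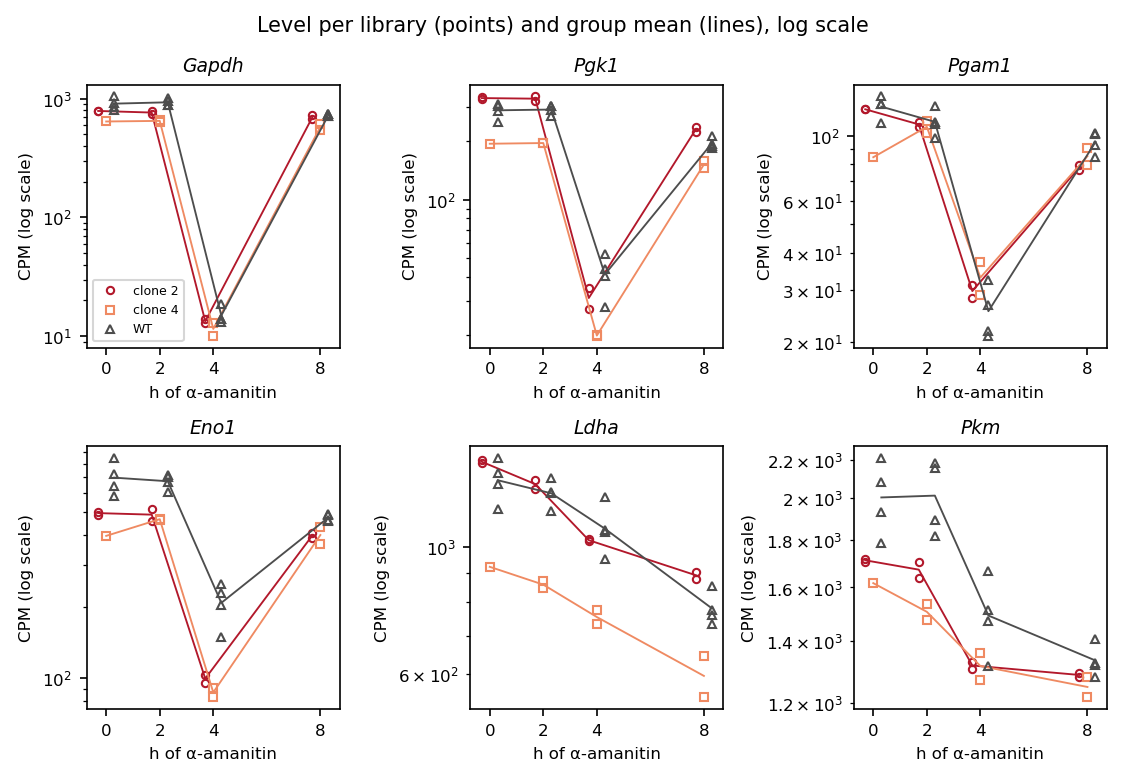
CPM on a log scale by hours of α-amanitin for Gapdh, Pgk1, Pgam1 and Eno1, which dip at 4 h in every line, and for Ldha and Pkm, which do not; a point is a library of clone 2 (circles), clone 4 (squares) or WT (triangles) and lines join group means.

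Other genes of these pathways, in lists chosen with earlier results known, gave the setting, and their counts stand beside the same shares of all genes called. Among 25 other glycolysis genes tested, 13 were higher and 7 lower in clone 2 and 11 higher and 10 lower in clone 4. The hexokinase relative Hkdc1 rose in both clones (SE, 2.28 ± 0.05 in clone 2 and 0.89 ± 0.05 in clone 4), Pdk2, another kinase of pyruvate dehydrogenase, in clone 2 (2.24 ± 0.05) and Fbp2, a gluconeogenic phosphatase, in clone 4 (1.35 ± 0.06). Eno3, the muscle enolase, fell in both (-1.74 ± 0.08 in clone 2 and -1.19 ± 0.08 in clone 4). Slc2a4 (GLUT4) fell in clone 2 (-1.54 ± 0.11) and the lactate exporter Slc16a3 in clone 4 (-1.05 ± 0.08). Slc2a4 was also lower in clone 4 at 0 h (-1.19, 1 library) and in pooled KO at 0, 2 and 8 h (-1.26, -1.07 and -1.03). Genes are named by size within each clone, so a gene named for 1 clone may differ in the other too. Over 8 h in WT 7 of the 25 were higher and 11 lower, with a median of -0.25.

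Of 15 genes of oxygen sensing and HIF itself, 6 were higher and 6 lower in clone 2 and 5 higher and 5 lower in clone 4. Epas1 (HIF2A) rose by 2.67 ± 0.04 (SE) in clone 2 and 0.81 ± 0.05 in clone 4, and Hif1a by 0.16 ± 0.05 in clone 2 and 0.55 ± 0.05 in clone 4. Hif3a fell in both (-1.21 ± 0.07 in clone 2 and -1.22 ± 0.08 in clone 4), as did Arnt2 (-1.71 ± 0.06 in clone 2 and -0.38 ± 0.06 in clone 4) and Vhl, which marks hydroxylated HIF for destruction (-0.28 ± 0.05 in clone 2 and -0.47 ± 0.05 in clone 4). Over 8 h in WT 5 were higher and 2 lower, Hif1a by 0.78 ± 0.08 and Epas1 by 0.79 ± 0.07.

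Among 37 other HIF target genes, 24 were higher and 7 lower in clone 2, with a median of 0.38, and 16 higher and 11 lower in clone 4, with a median of -0.02. Loxl2, a collagen cross-linking enzyme, rose by 2.26 ± 0.04 (SE) in clone 2, as did the carbonic anhydrase Car12 by 1.91 ± 0.05. Lox, which also cross-links collagen, rose by 3.34 ± 0.06 in clone 4. Its difference between clone 2 and clone 4 was -2.01 ± 0.08, which leaves clone 2 above WT as well. In pooled KO, Lox was higher at 0, 2, 4 and 8 h (2.46, 2.56, 2.69 and 2.62). The mTOR inhibitor gene Ddit4 fell in both clones (-1.40 ± 0.06 in clone 2 and -1.17 ± 0.06 in clone 4). Over 8 h in WT 24 of 37 were lower and 1 higher, with a median of -0.56, close to that of the 33 members.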

How the data were processed

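RNA was counted in 31 libraries (KO clone 2, KO clone 4 and WT at 0, 2, 4 and 8 h). The deposited tables, 1 per time point, hold raw counts per gene made by the authors, with gene length in another column, per the file headers. Because 8 members have a length that exceeds the RefSeq span of the gene, length-scaled levels were not used. The authors' deposited RIP-seq files are 2 lists of gene symbols of another kind, with no values. Per the labels' protocols libraries were made with a stranded kit. The submitters' processing notes name STAR 2.4.0.1, TopHat, Cufflinks, Cuffdiff, DESeq2 and, for read quality, FastQC 0.11.9, with the builds mm10 and GRCm38. Which program counted the reads, with which annotation and strand setting, is not given in the sources used here, so counts of genes with near-identical copies depend on unstated settings.

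Of 51520 lines per table, 110 repeated an identifier with the same counts and were dropped. Tests used R 4.3.3 and edgeR 4.0.16 (TMM, filterByExpr, robust quasi-likelihood fit). Pooled KO libraries were set against WT at each time with genotype as the only term. All other contrasts came from a joint fit of 12 groups (19 residual degrees of freedom), in which the single clone 4 library at 0 h is assumed to vary like the other groups. The error is the SE of the log2 difference. The pipeline was tested on simulated data. Alternatives were DESeq2 1.42.0, RLE factors, no filter, total counts alone, other groupings, a replicate block and each library left out.

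The members and gene lists were chosen with earlier results of these data known. Values per library, mostly at 0 h, are printed for members called the same way in both clones (the 8 largest by the smaller difference), called in opposite directions, with the 4 largest falls or rises over 8 h in WT, called for a difference in change, or with the 4 largest falls at 4 h. From each other list, fitted differences are given for up to 2 genes per direction. A gene of the other lists that this rule names is not reported here. Promoter sequences are from RefSeq (GRCm38.p6).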

Additional observations from a re-analysis of the deposited data

Results flagged for a closer look

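In 5 of 132 groups of 4 WT libraries, 1 library stood far from the other 3; chance gives about 1 in 20 such groups. At 4 h, Pfkm read 38.7 CPM in replicate 4 against 44.4 to 45.5 CPM in the other libraries, Gapdh 18.6 CPM in replicate 1 against 13.3 to 14 CPM, Eno2 22.3 CPM in replicate 2 against 17.6 to 18.3 CPM, and P4ha1 237 CPM in replicate 2 against 224 to 225 CPM. At 0 h, Pfkfb4 read 5.96 CPM in replicate 4 against 7.74 to 7.87 CPM.

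The change over 8 h was called different between clone 2 and WT, by the edgeR test of the difference itself, for 3 of 33 members. They were P4ha1 (0.36), Pfkl (0.42) and Mxi1 (0.43), each log2 clone 2 minus WT. Of all genes 7.42% were called, and each of the 3 calls was lost without at least 1 single library.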

How the results depend on the processing

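With the replicate number as a block, no member was called for KO against WT (0 at 0, 2, 4 and 8 h, and 0, 2, 0 and 0 of all genes), and 1 for the difference in change of clone 4. The numbers were not taken to pair libraries, since not every same-numbered pair had deviations correlated over 0.1: 3 of 14 KO and WT pairs within a time did (different numbers 7 of 42), 8 of 24 WT pairs across times (18 of 72) and 8 of 18 pairs of a clone across times (0 of 18). Each clone group used there held 2 libraries, so the different-numbered clone correlations mirror the same-numbered ones and are no separate comparison. For KO against WT, no filter on low counts gave 5 calls in place of 8 at 0 h and 4 in place of 7 at 8 h, and at 0 h leaving out WT replicates 1 and 2 gave 0 and replicates 3 and 4 gave 3. Leaving out 1 library gave 3 to 16 calls at 0 h, 5 to 11 at 2 h, 8 to 15 at 4 h and 1 to 9 at 8 h. Clone 4 against WT at 0 h had 13 calls in place of 23 with the 0 h libraries alone. WT at 2 h had 14 in place of 8 without a filter, 19 with total counts, 2 with the clones pooled, 17 without WT replicates 1 and 2 at 0 h, and 8 to 13 without 1 library; WT at 4 h had 14 in place of 28 with the clones pooled. The difference in change of clone 2 had 9 calls in place of 3 without WT replicates 3 and 4 at 0 h and 0 to 5 without 1 library. For clone 4, in place of 0, RLE factors gave 1, no filter 2, total counts 4, leaving out genes that are low at 4 h gave 1, DESeq2 3, leaving out WT replicates 1 and 2 gave 2 and replicates 3 and 4 gave 10, and leaving out 1 library 0 to 5. The causes were not tested. Total counts alone moved the median of all genes by up to -0.157 (clone 2 against WT at 0 h), and turned Higd1a in clone 2 over all times to -0.029. Another 7 member results, not called as reported, were called with the opposite sign under an alternative: with total counts, Pdk1 (-0.151) and Hk1 (-0.134) in clone 2 over all times; without WT replicates 1 and 2 at 0 h, Bnip3l in clone 2 at 0 h (-0.141); and without WT replicates 3 and 4 at 0 h, Bnip3l in clone 2 over all times (0.0822), P4ha1 (0.138) and Bnip3l (0.322) in WT at 2 h and Bnip3l in WT at 8 h (0.201). A change of sign with no call on either side was not counted. The numbers of calls, both directions together, of either clone over all times, of clone 2 at 0 h, of the clones against each other and of the 8 h changes stayed within 1.5 times under each alternative run. Of 281 called member results, 176 kept the call under every alternative run and 105 lost it under at least 1. Without the clone 4 library at 0 h its 0 h contrasts could not be fitted. Low counts limit Aldoa and Ankrd37 most, and Aldoa was read under 1 of the 2 identifiers that the reference lists for it.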

Other observations

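The authors' deposited lists name genes from RIP-seq of CAPRIN1, under the headings CNT vs RA and 2I vs RA, without values or direction. Of the 33 members, 10 (30.3%) are on the first list, as are 13% of the 15850 genes tested, and 11 (33.3%) are on the second, as are 14.9%. Both lists hold Slc2a1, Slc2a3, Hk2, Pgam1 and P4ha1, 5 of 33 members (15.2%) against 8.04% of genes tested. Among these 5, Slc2a3, Hk2 and P4ha1 are 3 of the 4 members higher in both clones, and the other, Vegfa, is on the first list alone. The same count over all genes higher in both clones was not made, so 3 of 4 has no share beside it. For Slc2a3 the clone 4 call was lost without the 4 h table and without TMM scaling. The overlap was not tested.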
